A study of Homo sapiens with 6 samples.

Results

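AHNAK and AHNAK2 are giant scaffold proteins that lie beneath the plasma membrane, and they were examined here with 8 genes of the S100 and annexin families, S100A4, S100A6, S100A10, S100A11, ANXA1, ANXA2, ANXA3 and ANXA4. The cells were HCT116, an established human colorectal carcinoma line. One group had been exposed for 48 h to 40 µM NU7441 (nu7441 in the labels), which inhibits DNA-PK, a kinase needed to join broken DNA ends, and the other for 48 h to its vehicle, 0.1% (v/v) dimethyl sulfoxide (DMSO). Each group had 3 samples, whose total RNA was read on Illumina bead arrays, 1 for each sample. The 10 genes were chosen by name after results of these data were known, in part for how they differed between the groups, so their NU7441 against vehicle values are given as a description, with no p-value. All their probes were taken by gene symbol, and a probe was kept where all 3 arrays of NU7441 or all 3 of vehicle had a detection p below 0.05. Of 19 probes, 17 were kept, out of 14973 kept among 47323 on the array, and every one of the 10 genes had at least 1.

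S100 proteins are small calcium sensors that act as pairs. S100A10 is the exception in that it no longer binds calcium, and it joins ANXA2 into a complex that holds the tail of AHNAK at the membrane and also serves as a receptor for plasminogen on the cell surface. Annexins bind acidic phospholipids when calcium enters a cell, and together with S100 partners and AHNAK they take part in vesicle fusion, in the organisation of cortical actin and in the resealing of torn plasma membrane. In carcinoma cells several of these genes are widely used as markers of a motile or mesenchymal state, S100A4 most of all.

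The arrays detected between 16593 and 17788 probes each, or 35.1% to 37.6%, with median signals of 72.8 to 75.3. Of 6 markers of colorectal epithelium, 5 were measured (EPCAM, CDH1, KRT8, KRT18 and KRT19) and all 5 were detected on all 6 arrays. Of 10 markers of leukocytes, endothelium, fibroblasts and muscle, 9 were not kept. The remaining one, COL1A1, was detected on 2 of the 3 NU7441 arrays and on all 3 vehicle arrays. CDH1, or E-cadherin, was 0.52 ± 0.13 higher on the log2 scale with NU7441 (adjusted p = 0.00563), and the other 4 epithelial markers did not pass by their brightest probes, while a second KRT18 probe was lower, at -0.48 ± 0.14 (adjusted p = 0.0144). The part of these markers in the results below was not tested. The median standard deviation within a group was 0.147 log2 units over all kept probes on the NU7441 arrays and 0.113 on the vehicle arrays, and 0.12 and 0.087 over the 17 probes of the 10 genes. With 3 arrays per group, precision is limited throughout. Separate cultures are not stated for the samples of a group, so standard errors and p-values reflect the spread of these arrays alone, part of which may be technical.

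Before the values, the sequence upstream of 4 of the genes is shown: those of AHNAK2 and AHNAK, the scaffolds at the centre of the set, of S100A10, which stood higher by both of its probes, and of ANXA3, which stood lower. Each is the stretch of 250 bases before a transcription start in RefSeq's GRCh38.p14 annotation, 5′ to 3′ on the gene's strand, with matches to any of 7 short motifs on either strand in capitals.

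AHNAK2 promoter, chr14:104978375-104978624, minus strand: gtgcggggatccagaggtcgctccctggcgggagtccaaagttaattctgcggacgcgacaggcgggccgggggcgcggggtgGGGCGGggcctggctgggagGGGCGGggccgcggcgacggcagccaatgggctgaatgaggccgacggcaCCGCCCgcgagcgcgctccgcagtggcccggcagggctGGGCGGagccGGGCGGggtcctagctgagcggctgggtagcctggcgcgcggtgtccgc
AHNAK promoter, chr11:62545827-62546076, minus strand: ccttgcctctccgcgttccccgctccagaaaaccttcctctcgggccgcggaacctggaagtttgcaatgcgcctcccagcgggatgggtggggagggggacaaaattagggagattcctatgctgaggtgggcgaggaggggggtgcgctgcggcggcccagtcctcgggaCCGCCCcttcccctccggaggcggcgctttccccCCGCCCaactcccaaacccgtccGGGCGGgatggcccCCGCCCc
S100A10 promoter, chr1:151993860-151994109, minus strand: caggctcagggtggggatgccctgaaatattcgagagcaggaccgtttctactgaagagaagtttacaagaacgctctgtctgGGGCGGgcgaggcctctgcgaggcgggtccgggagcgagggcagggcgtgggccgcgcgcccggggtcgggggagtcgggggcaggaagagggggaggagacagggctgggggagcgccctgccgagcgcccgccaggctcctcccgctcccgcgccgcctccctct
ANXA3 promoter, chr4:78551520-78551769, plus strand: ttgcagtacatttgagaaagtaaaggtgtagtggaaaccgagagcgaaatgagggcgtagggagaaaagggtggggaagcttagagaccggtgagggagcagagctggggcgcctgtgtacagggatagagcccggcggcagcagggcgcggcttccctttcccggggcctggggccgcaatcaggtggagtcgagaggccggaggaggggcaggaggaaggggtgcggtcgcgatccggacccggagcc

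The AHNAK2 stretch held 5 copies of the GC box (GGGCGG, or CCGCCC on the other strand) and 77.2% G and C, the AHNAK stretch 4 copies and 70.0%, and the S100A10 stretch 1 copy and 71.2%. The ANXA3 stretch held 64.0% G and C and no match to any of the 7. The TATA box was searched as TATAAA and the AP-1 motif as TGANTCA. The E-box was searched as CACGTG and the motif of forkhead factors as GTAAACA. The antioxidant response element was searched as TGACNNNGC, and the motif of TEAD factors as CATTCC. None of these 6 was found in the 4 stretches. Among all 35116 promoters of the table, 42.6% held a GC box, 10.7% a TATA box, 6.57% the AP-1 letters, 6.34% the E-box, 2.98% the forkhead letters, 10.9% the antioxidant response element and 11.9% the TEAD letters, and the median G and C content was 58.0%. Of the 10 genes, 9 had a promoter at the annotated start of the gene, AHNAK being the exception, whose promoter in the table lies at a different start. At those 9 starts a GC box was found in 6 genes, a TATA box in 3 (S100A4, ANXA1 and ANXA2) and the AP-1 letters in 1 (ANXA2). These letters describe the sequence and say nothing of whether a factor was bound there.

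The scaffold genes were both brighter on the NU7441 arrays. AHNAK2, the less studied of the pair, stood about 4 times as bright by its brightest probe, a size that depends on the background correction. On the log2 scale after background correction and normalization, that probe gave 8.09, 7.74 and 7.56 on the NU7441 arrays and 5.63, 5.90 and 5.93 on the vehicle arrays. All 3 NU7441 arrays lay above all 3 vehicle arrays, and replicate 1 was the highest of the NU7441 arrays and the lowest of the vehicle arrays. The means were 7.80 ± 0.27 with NU7441 and 5.82 ± 0.17 with vehicle (SD, n = 3 each), a log2 difference of 1.98 ± 0.14 (SE of the fit), or 3.93-fold. Before any correction the same probe had read 280.2, 249.5 and 259.3 intensity units with NU7441 and 109.2, 114.8 and 121.3 with vehicle. Normalized without background correction, its log2 difference was 1.31 in place of 1.98. A second AHNAK2 probe gave 6.50, 6.49 and 6.54 with NU7441 and 5.06, 5.24 and 5.07 with vehicle. It too was higher on every NU7441 array, by 1.39 ± 0.11, or 2.62-fold. The remaining 2 AHNAK2 probes were not kept: the nearest to the limit had detection p-values of 0.0273, 0.487 and 0.292 with NU7441 and 0.17, 0.549 and 0.087 with vehicle. Levels are of RNA from whole cultures, in which fewer cells that carry a transcript and less of it per cell cannot be told apart.

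AHNAK, which was named for its size and which anchors cortical actin and L-type calcium channel subunits, gave 8.64, 8.59 and 8.82 by its brightest probe with NU7441 and 7.66, 7.71 and 7.64 with vehicle. The groups did not overlap, and the vehicle arrays lay close together. The difference was 1.02 ± 0.11, or 2.02-fold, from means of 8.68 ± 0.12 with NU7441 and 7.67 ± 0.03 with vehicle (SD, n = 3 each). The uncorrected signals of this probe were 387.0, 403.4 and 542.2 with NU7441 and 284.1, 263.7 and 278.9 with vehicle, so replicate 3 was the brightest treated array on either scale. The other 2 AHNAK probes, both dim, did not show that difference. One, annotated to a different and shorter RefSeq transcript, gave 4.90, 5.11 and 4.96 with NU7441 and 4.99, 4.90 and 4.83 with vehicle, a difference of 0.08 ± 0.11. The dimmest gave 4.74, 4.53 and 4.35 with NU7441 and 4.51, 4.62 and 4.57 with vehicle, a difference of -0.03 ± 0.12. In both the groups overlapped. The uncorrected signals of the probe for the shorter transcript were 82.2, 88.9 and 90.0 with NU7441 and 89.6, 85.4 and 85.5 with vehicle. These lie close to the median signals of the arrays, 72.8 to 75.3, where a difference is hard to see. That dimmest probe lies just inside the detection limit, with p-values of 0.0039, 0.0169 and 0.0961 with NU7441 and 0.0234, 0.00649 and 0.0143 with vehicle, and was kept through the vehicle arrays. The 3 probes were not tested against each other. Their mean, which takes in the 2 dim probes, gave 0.36 for the gene in place of 1.02.

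**Figure D1:**
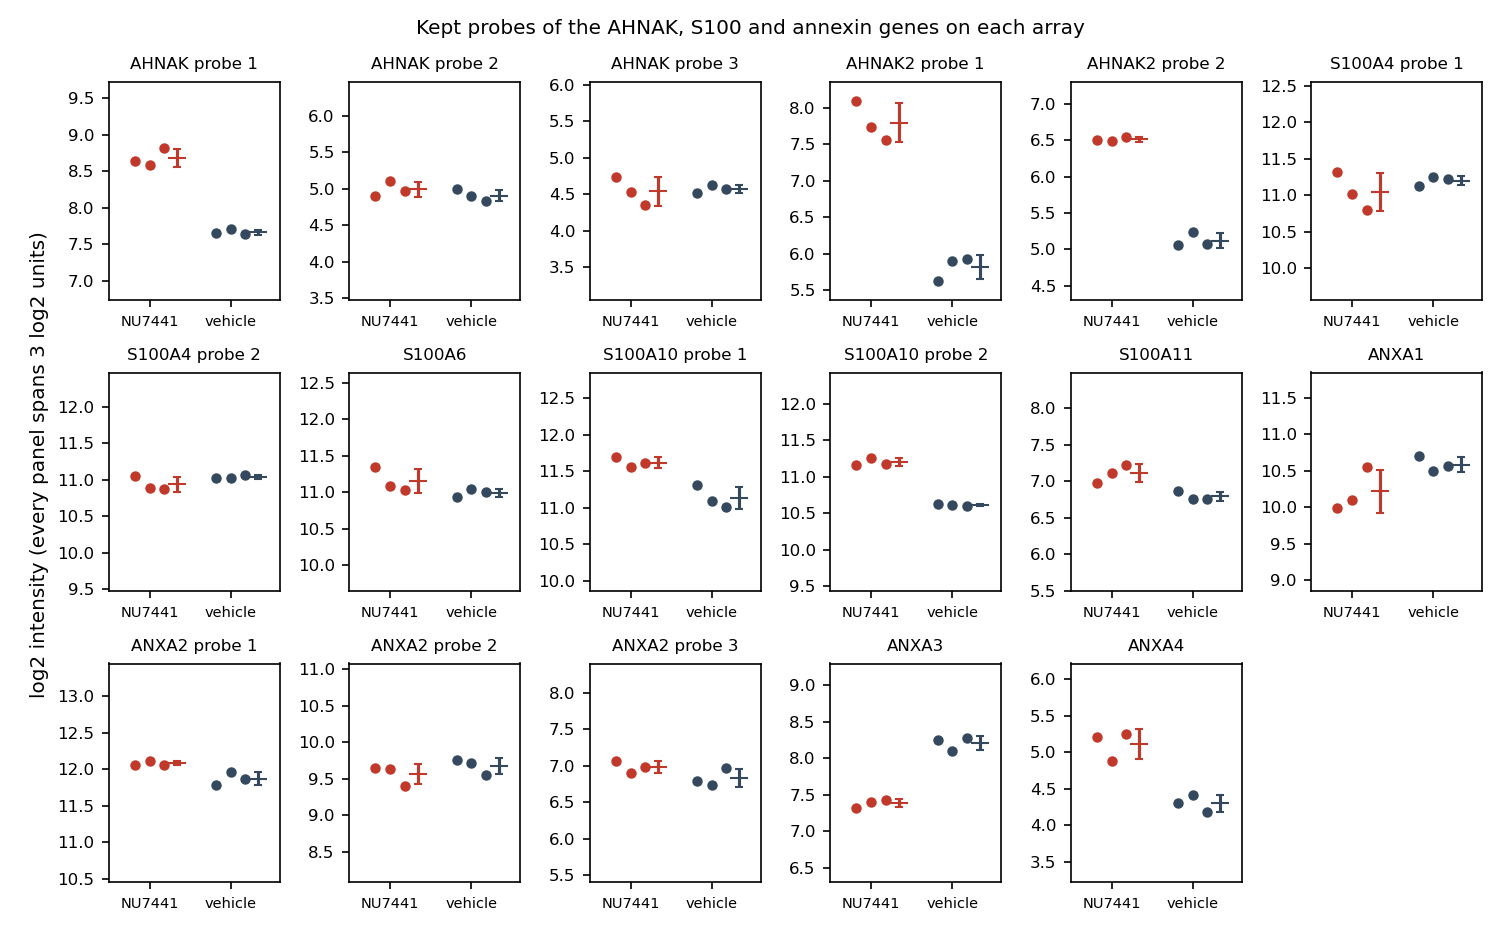
Log2 intensity of each of the 17 kept probes on the 6 arrays, with NU7441 arrays at left in red and vehicle arrays at right in dark blue in every panel; replicates run 1 to 3 from left to right, the short line is the group mean and the bar its SD, and every panel spans 3 log2 units. AHNAK2 shows the widest gap, with 7.56 as its lowest NU7441 array and 5.93 as its highest vehicle array by the brightest probe, while both S100A4 panels overlap.

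S100A10, the partner that links ANXA2 to AHNAK, stood higher by both probes and by similar amounts. Its brightest probe gave 11.69, 11.55 and 11.61 with NU7441 and 11.31, 11.09 and 11.01 with vehicle, a difference of 0.48 ± 0.12, or 1.40-fold. The second gave 11.15, 11.26 and 11.18 with NU7441 and 10.63, 10.62 and 10.60 with vehicle, a difference of 0.58 ± 0.11, or 1.5-fold. In neither probe did any NU7441 array reach down to a vehicle array. ANXA2 is its annexin partner in that complex, and its values lay closer together between the groups. The brightest ANXA2 probe gave 12.07, 12.12 and 12.07 with NU7441 and 11.78, 11.96 and 11.87 with vehicle. These did not overlap, but the difference of 0.21 ± 0.11 did not pass the threshold, an adjusted p below 0.05 in the fit over all kept probes. The other 2 ANXA2 probes, annotated to another transcript variant, differed by -0.12 ± 0.12 and 0.15 ± 0.11, with overlapping groups. The gap between S100A10 and ANXA2 was not tested. ANXA2 shares most of its sequence with processed pseudogenes, so its probes may read more than 1 locus. Probes named for these copies, looked up after the ANXA2 values were seen, did not move together: the ANXA2P1 probes differed by 0.94 ± 0.14 (adjusted p = 0.000147) and 0.80 ± 0.16 (adjusted p = 0.00197), the ANXA2P3 probe by 0.34 ± 0.11 (adjusted p = 0.0317) and the ANXA2P2 probe by -0.08 ± 0.11 (adjusted p = 0.604).

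S100A11, which pairs with ANXA1 and ANXA2 and is required for membrane resealing, gave 6.98, 7.12 and 7.23 with NU7441 and 6.87, 6.76 and 6.75 with vehicle. The groups were apart by a narrow margin, with a difference of 0.32 ± 0.11, or 1.24-fold, that passed the threshold. This separation appeared only after normalization: the uncorrected signals were 161.6, 183.3 and 218.3 with NU7441 and 185.3, 162.6 and 174.7 with vehicle, and those overlap. Leaving out NU7441 replicate 2 or 3, or any single vehicle array, also took S100A11 off the threshold.

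The remaining S100 genes of the set did not pass the threshold as processed here. S100A6, or calcyclin, which binds ANXA11 and several ubiquitin ligase and chaperone partners, gave 11.35, 11.09 and 11.04 with NU7441 and 10.93, 11.05 and 10.998 with vehicle. Replicate 3 of the treated arrays lay within the vehicle range and replicate 2 just above it. The groups thus overlapped, and the difference was 0.17 ± 0.12. With arrays scaled to the 75th percentile of detected probes it was 0.35 and passed. S100A4, or metastasin, which binds nonmuscle myosin and drives motility, gave 11.32, 11.01 and 10.80 with NU7441 and 11.13, 11.24 and 11.22 with vehicle by its brightest probe, a difference of -0.16 ± 0.13. Its second probe gave 11.05, 10.89 and 10.87 with NU7441 and 11.02, 11.02 and 11.07 with vehicle, a difference of -0.10 ± 0.11. Both S100A4 probes overlapped between the groups, and their sign turned to 0.03 and 0.08 when arrays were scaled to the 75th percentile of detected probes.

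Of the annexins, ANXA3 passed the threshold as lower and ANXA4 as higher, though the detection filter favoured that direction for ANXA4. ANXA3, an annexin raised in many carcinomas, was lower on every NU7441 array: 7.32, 7.40 and 7.43 with NU7441 and 8.24, 8.10 and 8.27 with vehicle. The groups were wide apart and each was narrow, and the difference was -0.83 ± 0.11, or 0.564 times the vehicle level. The uncorrected ANXA3 signals were 188.0, 209.6 and 241.3 with NU7441 and 403.0, 332.7 and 401.6 with vehicle. ANXA4, an epithelial annexin that forms lattices on membranes, was higher, at 5.20, 4.87 and 5.25 with NU7441 and 4.30, 4.42 and 4.18 with vehicle. The difference was 0.81 ± 0.13, or 1.75-fold, but the probe is dim. ANXA4 was detected on all 3 NU7441 arrays and on 1 of the 3 vehicle arrays. It passed the detection filter only through the NU7441 arrays, which favours a higher value there, so its direction is not read as a result. Its uncorrected signals of 87.8, 84.2 and 97.9 with NU7441 and 75.3, 76.8 and 71.2 with vehicle lie close to the median signal of the arrays, those with vehicle closest.

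ANXA1, the annexin through which glucocorticoids dampen inflammation and a substrate of the EGF receptor, was spread widely across the treated arrays. It gave 10.00, 10.10 and 10.55 with NU7441 and 10.70, 10.49 and 10.56 with vehicle. NU7441 replicates 1 and 2 lay below all vehicle arrays, and replicate 3 within their range. The difference of -0.37 ± 0.14 did not pass the threshold. Without NU7441 replicate 3 it was -0.54 and passed.

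**Figure D2:**
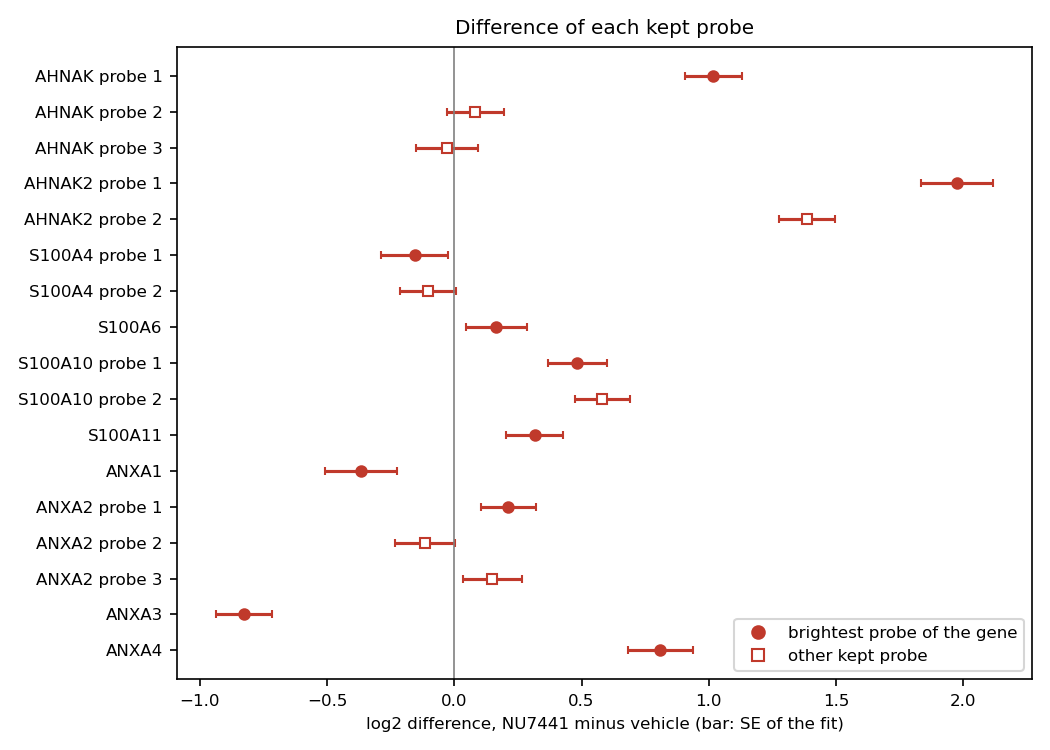
Log2 difference, NU7441 minus vehicle, of the 17 kept probes of the 10 genes, with the SE of the limma fit as the bar; filled circles are the brightest probe of each gene and open squares the other kept probes. AHNAK2 reaches 1.98 and 1.39, the brightest AHNAK probe 1.02 beside 0.08 and -0.03 for the other AHNAK probes, and ANXA3 lies at -0.83.

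Counted by probe, 7 of the 17 stood higher past the threshold, 1 stood lower and 9 did not pass, with a median log2 difference of 0.17. Of all 14973 kept probes 16.7% were higher and 17.5% lower, with a median of 0.01. On 8 of the 17 probes the NU7441 arrays all lay above the vehicle arrays and on 1 all below, where over all kept probes 23.1% lay above and 23.9% below. Counted by gene, through the brightest probe, AHNAK, AHNAK2, S100A10, S100A11 and ANXA4 were higher, ANXA3 was lower, and S100A4, S100A6, ANXA1 and ANXA2 did not pass. ANXA4 was kept through the NU7441 arrays only, so its call is not read as a result. Of 9342 named genes 17.8% were higher and 18.9% lower. Nothing is read from the counts of the 10 genes against these shares, because the same contrast had a part in their choice.

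The order of the differences, from the brightest probes, ran AHNAK2, AHNAK, ANXA4, S100A10, S100A11, ANXA2, S100A6, S100A4, ANXA1 and ANXA3. AHNAK2 stood above AHNAK by more than their standard errors (1.98 ± 0.14 against 1.02 ± 0.11), by the brightest probe of each. Without background correction these probes gave 1.31 for AHNAK2 and 0.85 for AHNAK, while the second AHNAK2 probe gave 0.70. ANXA4, at 0.81 ± 0.13, came before S100A10, at 0.48 ± 0.12, but it was kept through the NU7441 arrays only, so nothing is read from its place. That place also depended on the processing: without background correction ANXA4 differed by 0.29 and S100A10 by 0.47. When all probes of each gene were averaged AHNAK, at 0.36 with its dim probes included, came after ANXA4 and S100A10. The intervals of 1 standard error overlapped between AHNAK and ANXA4, between S100A10 and S100A11, among S100A11, ANXA2 and S100A6, and between S100A4 and ANXA1, so these neighbours could not be put in order. Intervals that stay apart do not establish an order either, since genes were not tested against each other. Levels of different probes are not set against each other, since a probe's brightness depends on its own sequence.

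The other genes of both families were taken by name, not by how they moved. Of 17 other S100 genes 4 were measured, and 1 rose and 1 fell. S100A13, which carries growth factors out of cells by a nonclassical route, was at 8.62, 8.49 and 8.45 with NU7441 and 7.89, 7.89 and 7.70 with vehicle, a difference of 0.69 ± 0.11 (adjusted p = 0.000391), and a second probe gave 0.79 ± 0.12 (adjusted p = 0.000196). S100A3, a cysteine-rich S100 best known from hair cuticle, was at 4.28, 4.68 and 4.40 with NU7441 and 5.76, 5.60 and 5.80 with vehicle, a difference of -1.27 ± 0.13. It was detected on 1 of the 3 NU7441 arrays and on all 3 vehicle arrays. S100A3 thus passed the filter only through the vehicle arrays, which favours a lower value with NU7441. Its call, the 1 that fell, is not read as a result. S100A14 and S100A16 differed by 0.32 ± 0.15 (adjusted p = 0.119) and 0.20 ± 0.12 (adjusted p = 0.188). Of 9 other annexins 3 were measured. ANXA5, the annexin used to stain phosphatidylserine on dying cells, rose by 0.51 ± 0.11 (adjusted p = 0.00295), with 9.90, 9.95 and 9.76 on the NU7441 arrays and 9.31, 9.44 and 9.34 on the vehicle arrays. ANXA7 differed by 0.24 ± 0.12 (adjusted p = 0.135), and ANXA11 by -0.25 ± 0.12 (adjusted p = 0.129). A second ANXA11 probe differed by 0.08 ± 0.12 (adjusted p = 0.659).

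Most S100 genes lie in a cluster on chromosome 1. RefSeq places 15 genes named S100A with only a number after it on that chromosome, of which 8 were measured here. Their order is followed below. S100A6, S100A5, S100A4 and S100A3 follow each other: S100A6 differed by 0.17, S100A5 was not measured, S100A4 differed by -0.16 and S100A3 by -1.27. S100A10 and S100A11, at one end, differed by 0.48 and 0.32, and S100A16, S100A14 and S100A13, toward the other end, by 0.20, 0.32 and 0.69.

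**Figure D3:**
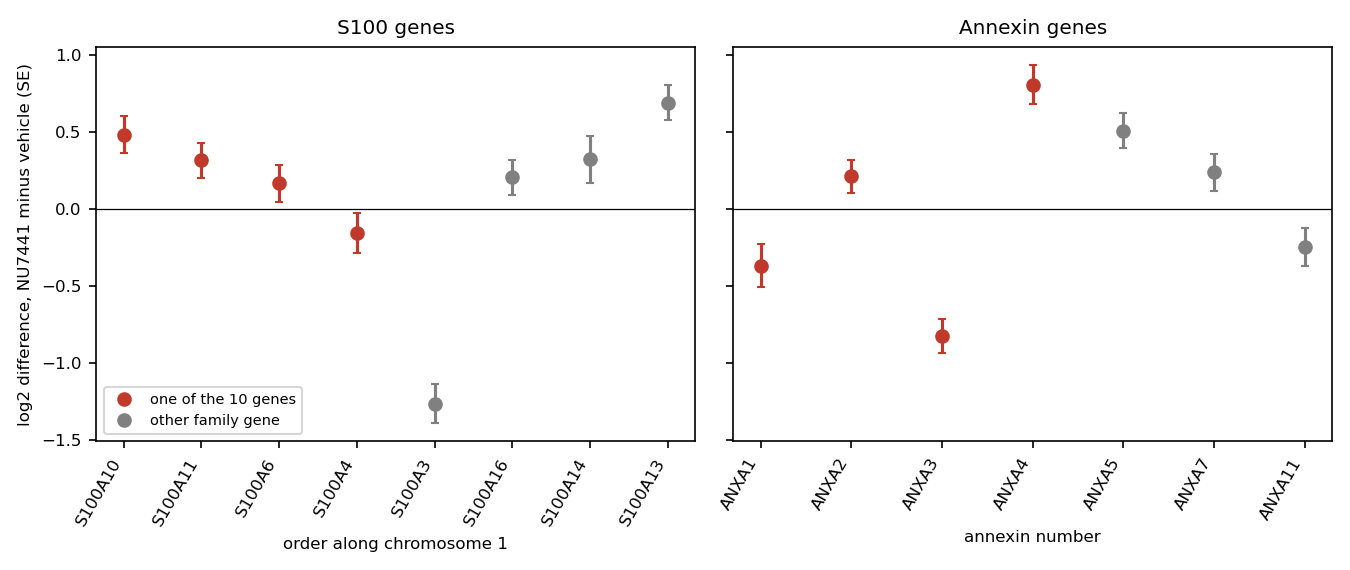
Log2 difference, NU7441 minus vehicle, with the SE of the fit as the bar, for every measured S100 gene in its order along chromosome 1 (left) and every measured annexin by its number (right); red points are among the 10 genes and grey points are the other genes of the family. S100A3 at -1.27, kept through the vehicle arrays only, lies next to S100A4 at -0.16 in the left panel. ANXA3 at -0.83 lies next to ANXA4 at 0.81, kept through the NU7441 arrays only, in the right one.

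A total of 5 lists of proteins that bind these families or work with them held 80 genes, of which 61 were measured, 14 rose and 10 fell, with a median difference of 0.04, beside 0.00 over all 9342 genes. Against the 17.8% of all genes that were higher and the 18.9% that were lower, the counts of these 61 lie near the background, and with 7 to 21 genes a list, nothing particular to a list is read from its count. Among 13 measured binding partners of S100 proteins, 0 rose and 4 fell by limma's adjusted p, with a median of -0.15. At an unadjusted p below 0.05 these counts were 1 and 5, and over the alternatives 0 to 1 rose and 2 to 4 fell. CACYBP, the calcyclin-binding protein that S100A6 contacts in a ubiquitin ligase complex, fell by 0.93 ± 0.13 on the log2 scale (adjusted p = 9.88e-05), with 8.04, 8.09 and 7.66 on the NU7441 arrays and 8.80, 8.93 and 8.85 on the vehicle arrays. A second, dim CACYBP probe differed by -0.30 ± 0.13 (adjusted p = 0.0876). FKBP4, an immunophilin that works with the HSP90 chaperone, was at 7.13, 7.11 and 6.82 with NU7441 and 8.07, 7.82 and 7.92 with vehicle, and fell by 0.92 ± 0.12 (adjusted p = 8.38e-05). NCL, or nucleolin, fell by 0.37 ± 0.12 (adjusted p = 0.0259), and by 0.80 ± 0.12 by a second probe (adjusted p = 0.000163), and EZR, or ezrin, by 0.32 ± 0.12 (adjusted p = 0.0451). A second EZR probe differed by -0.19 ± 0.12 (adjusted p = 0.26), with overlapping groups. MYH9, the nonmuscle myosin heavy chain that S100A4 takes apart, differed by 0.31 ± 0.12 by its brightest probe (adjusted p = 0.0502), while a second probe was higher by 0.59 ± 0.13 (adjusted p = 0.0032).

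Among 21 measured genes of membrane repair and fusion, 5 rose and 0 fell by limma's adjusted p, with a median of 0.06. At an unadjusted p below 0.05 these counts were 6 and 1. With arrays scaled to the 75th percentile 3 rose and 2 fell, and 1 fell without background correction and in the authors' deposited table. CAPNS1, the small subunit of the calpains that cut repair proteins after calcium entry, rose by 0.59 ± 0.11 (adjusted p = 8e-04), with 8.87, 8.75 and 8.80 on the NU7441 arrays and 8.21, 8.20 and 8.23 on the vehicle arrays. EHD2, an ATPase at the neck of caveolae, rose by 0.51 ± 0.12 (adjusted p = 0.00554). The membrane fusion proteins SNAP23 and VAMP3 rose by 0.47 ± 0.12 (adjusted p = 0.00775) and 0.40 ± 0.14 (adjusted p = 0.0414). VPS4B, an ATPase that disassembles ESCRT-III at membranes, rose by 0.38 ± 0.11 (adjusted p = 0.014).

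Genes of caveolae and the cell cortex moved in both directions: of 13 measured, 5 rose and 4 fell, with a median of 0.13. CAV1, the main coat protein of caveolae, was at 8.97, 9.16 and 9.33 with NU7441 and 10.34, 10.34 and 10.25 with vehicle and fell by 1.15 ± 0.12 (adjusted p = 9.66e-06). Its partner CAV2 fell by 0.83 ± 0.13 (adjusted p = 0.000254) and ACTB, cytoplasmic actin, by 0.63 ± 0.11 (adjusted p = 0.00074). Another CAV2 probe differed by -0.46 ± 0.12 (adjusted p = 0.00961). The dimmest CAV2 probe differed by -0.16 ± 0.12 (adjusted p = 0.322), with overlapping groups. PLEC, a giant linker of intermediate filaments, was at 5.88, 5.99 and 6.12 with NU7441 and 5.33, 5.04 and 4.83 with vehicle and rose by 0.93 ± 0.13 (adjusted p = 0.000143). CAVIN3, an adaptor of the caveolar coat, rose by 0.66 ± 0.14 (adjusted p = 0.00306) and ACTN4, an actin crosslinker, by 0.42 ± 0.12 (adjusted p = 0.0144). ACTG1, the other cytoplasmic actin, did not pass by its brightest probe, while a second probe was at -0.54 ± 0.11 (adjusted p = 0.00184).

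The plasminogen system, whose surface receptor S100A10 forms with ANXA2, had 7 measured genes, of which 2 rose and 2 fell by limma's adjusted p, with a median of 0.18. At an unadjusted p below 0.05 these counts were 2 and 3. With trend and robust eBayes or array weights 3 fell, and at an adjusted p below 0.01 0 fell. The lysosomal proteases CTSB and CTSD rose by 0.69 ± 0.13 (adjusted p = 0.00078) and 0.50 ± 0.12 (adjusted p = 0.00498). ENO1, the glycolytic enzyme that also binds plasminogen, fell by 0.33 ± 0.11 (adjusted p = 0.0366). PLAT, tissue plasminogen activator, was not above background on any NU7441 array. Vehicle was at least 1.24-fold brighter, with measured means of 4.30 for NU7441 and 4.73 for vehicle. The PLAT probe passed the detection filter only through the vehicle arrays, which favours a lower value with NU7441. Its call among the 2 that fell is not read as a result. Of 7 measured partners of AHNAK in signalling, 2 rose and 0 fell by limma's adjusted p and at an unadjusted p below 0.05 alike, with a median of 0.04. These counts rest on brightest probes: a second probe of YWHAB, a 14-3-3 adaptor, differed by -0.42 ± 0.12 (adjusted p = 0.0128), and 1 gene of the list fell when probes were averaged. SMAD3, a transducer of TGF-β signals, rose by 0.69 ± 0.13 (adjusted p = 0.000836) and PRKCA, protein kinase C alpha, by 0.65 ± 0.14 (adjusted p = 0.00292).

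**Figure D4:**
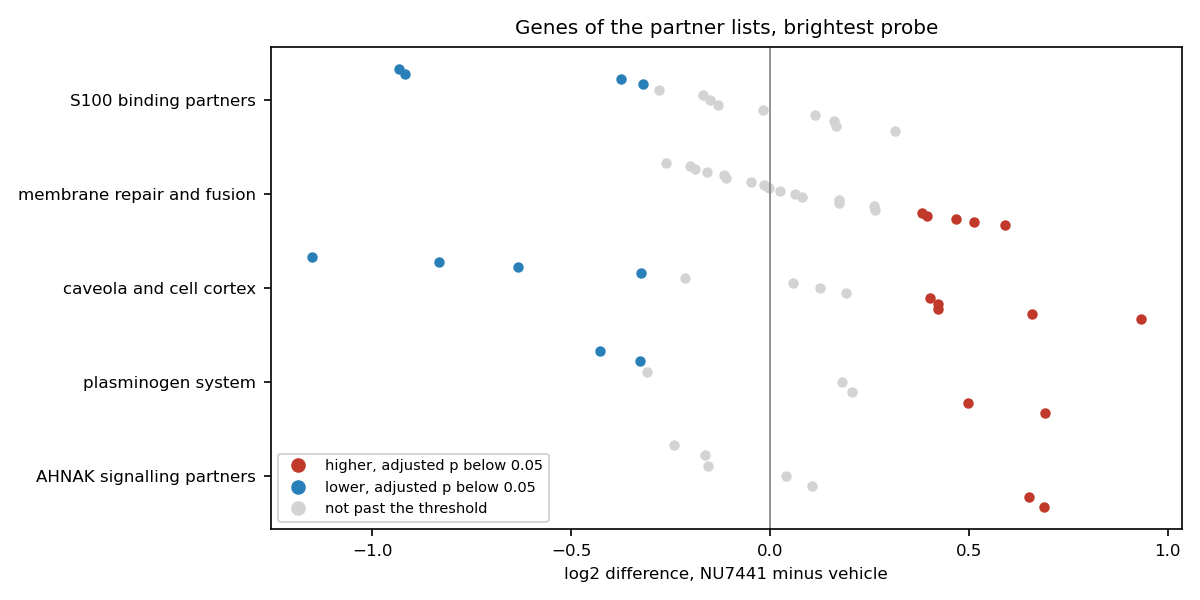
Log2 difference, NU7441 minus vehicle, of the brightest probe of each of the 61 measured genes in 5 lists of partners, ordered within each list by their difference; red points rose and blue points fell at an adjusted p below 0.05, and grey points did not pass. CAV1 at -1.15 is the lowest point and PLEC at 0.93 the highest, both in the list of caveolae and the cell cortex, and the 4 S100 binding partners and 5 membrane repair and fusion genes that passed as processed here are coloured in the upper lists.

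By likeness over the 6 arrays, measured as the root mean square difference of log2 values after each probe's vehicle mean was taken off, the genes nearest to AHNAK were WIPI1 (0.0506), SNORD3D (0.0553) and LRP11 (0.0588). They differed between NU7441 and vehicle by 1.00, 0.98 and 0.99, beside 1.02 for AHNAK. WIPI1 binds phosphoinositides on forming autophagosomes. The genes nearest to AHNAK2 were MXD4 (0.125), H2AC18 (0.140) and H2AC6 (0.207), with differences of 1.99, 1.88 and 1.94 beside 1.98. MXD4 is a repressor that competes with MYC for its partner MAX, and the H2AC genes encode histone H2A. With 6 arrays in 2 groups the measure follows mostly the size of the difference.

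**Figure D5:**
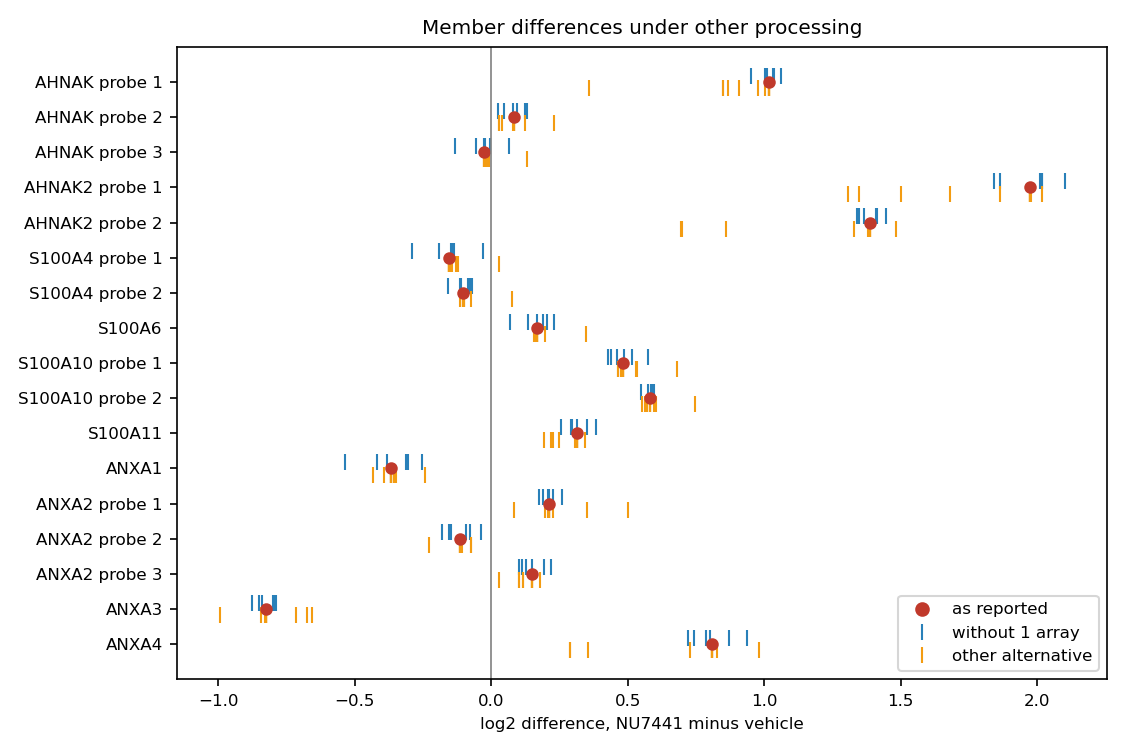
Log2 difference, NU7441 minus vehicle, of the 17 kept probes as reported (red circles), with 1 array left out (blue ticks) and under the other alternatives (orange ticks). AHNAK2 ranges from 1.31 to 2.10 by its brightest probe and ANXA3 from -0.996 to -0.658, and the S100A4 probes and AHNAK probe 3 cross 0.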

How the data were processed

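Per the labels' protocols, total RNA was amplified to biotinylated cRNA. The submitters' processing notes name GenomeStudio, R 3.0.2 and lumi, without settings. For every probe on every array the authors deposited an intensity on a linear scale, unnormalized, and a detection p-value, per the file headers. Arrays were matched to groups through the column headings, T taken as treated and V as vehicle. The authors also deposited a log2 table of the same arrays, which differed by at most 0.0676 from log2 quantile-normalized signals. Each of its columns had a median of 6.22, and 1 probe had no value. It is uncentred and served as an alternative.

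Intensities were background corrected with normexp, negative controls inferred from detection p-values, offset 16, then quantile normalized and log2 transformed in limma 3.58.1 under R 4.3.3. The offset shrinks differences of dim probes. Symbols came from GEO's platform annotation: 30112 probes had 1 symbol, 8 several and 17203 none. Differences were fitted with lmFit and eBayes, group as the only term, with Benjamini-Hochberg adjustment over 14973 kept probes. Genes stood by their brightest kept probe. The fit was tested on simulated data. The members and lists were chosen with earlier results of these data known. From each list, up to 6 genes past the threshold with the largest difference were named, besides the 10 genes with all kept probes, the measured other S100 genes and annexins, and the 3 genes most like each AHNAK gene; MYH9, ACTG1, YWHAB and KRT18 were named after their values were seen. Same-numbered arrays did not deviate together (correlations of -0.113, 0.046 and -0.066). With 3 arrays per group this cannot settle whether the replicate numbers pair the arrays, and the fit took them as unpaired. The files used here give no slide or scan batch. Promoter sequences are RefSeq's. Protein sequences were not used here. Alternatives were other background corrections, scalings and filters, the authors' log2 table, other variance models, 1 probe or the mean of a gene's probes, the replicate number as a block, a stricter threshold and leaving out each array. Python 3.11.15 with matplotlib 3.10.9 drew the figures.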

Additional observations from a re-analysis of the deposited data

How the results depend on the processing

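In the 19 alternatives no member probe past the threshold changed sign. AHNAK, AHNAK2, S100A10 and ANXA3 kept their calls in all 19. ANXA4, which the detection filter had kept through the NU7441 arrays only, was left out by the stricter filter, and nothing is read from its calls elsewhere. The number of genes of the set that stood lower, 1 as reported, was 2, with ANXA1 as the second, without background correction, with an offset of 50, with detection p below 0.01 on all 6 arrays, with trend and robust eBayes, with array weights and with 1 probe per gene or the mean of all its probes. Leaving out 1 array gave 1 to 2 such genes and probes, 2 without NU7441 replicate 3. ANXA2 passed as higher without background correction, with an offset of 50, under both other scalings, with the authors' table and with trend and robust eBayes. S100A6 passed as higher under the 75th percentile of detected probes and in no other alternative. S100A11 lost its call under the 75th percentile, without a detection filter, with the replicate block, at an adjusted p below 0.01 and without any one array other than NU7441 replicate 1. The replicate block gave 6 member probes higher and 1 lower.

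Among the other S100 genes and annexins, detection on all 6 arrays left 0 lower, since S100A3 was not tested. That count stayed at 1 without each array, and the higher count was 2 to 3. Since S100A3 was the gene counted as lower, nothing is read from the lower count. Partner genes that rose, 14 as reported, numbered 9 under the 75th percentile and at an adjusted p below 0.01, and 9 to 14 without 1 array, 9 without vehicle replicate 3. Partner genes that fell, 10 as reported, numbered 6 under the 75th percentile of detected probes, a scaling chosen after seeing the data, 5 at an adjusted p below 0.01, and 6 to 9 without 1 array, 6 without vehicle replicate 1, 2 or 3. The 24 named list genes with a call include S100A3 and PLAT. Both were kept through the vehicle arrays only, so nothing is read from their calls. Of the 24, 17 kept the call in every alternative that tested them, and NCL, EZR, VAMP3, VPS4B, ACTN4, PLAT and ENO1 did not. The cause was not tested. Of all calls 48.9% were higher as reported, 36.5% under the 75th percentile and 65.9% under that of detected probes, which moved the median of all kept probes to 0.11. Without background correction the AHNAK2 probes differed by 1.31 and 0.70 in place of 1.98 and 1.39, and the dim ANXA4 probe by 0.29 in the authors' table in place of 0.81.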
